A study of Mus musculus with 24 samples.

Results

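The glucocorticoid receptor gene and 9 genes that glucocorticoids are known to induce were followed through 24 mouse muscles. The 10 genes were Nr3c1, Fkbp5, Tsc22d3, Klf15, Zbtb16, Cebpd, Ddit4, Sgk1, Mt1 and Mt2. They were chosen by symbol, with earlier results of these data known, out of 55416 genes in the count table. All 10 were among the 16408 genes with enough reads to be tested.

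Glucocorticoids are adrenal steroid hormones that enter the cell and bind the receptor encoded by Nr3c1, which is held in the cytoplasm by heat shock chaperones. The bound receptor moves to the nucleus, binds DNA at the glucocorticoid response element, a palindrome of 2 half-sites, and raises or lowers transcription of nearby genes. In skeletal muscle the hormone is known for shifting fuel use, raising protein breakdown and restraining growth signaling, and its targets also respond to fasting, the time of day and other stresses.

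The muscle was gastrocnemius, a calf muscle of mixed fiber type, from wild-type mice of 1 inbred strain (C57BL/6J, spelled C56BL6J in the labels) that were bought at 8 weeks of age. Sham mice moved freely, and SMC mice lived for 8 weeks in the small mouse cage, an acrylic box that restricts spontaneous movement. Each housing condition held 6 males and 6 females, with no transgene in any mouse, and each library is named here by its group and its number from 1 to 24. According to the study's methods, all mice were kept on a light and dark cycle, and were fasted and anesthetized with ketamine and xylazine before tissue collection, whereas the clock time of collection was not given in the sources used here.

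Promoter sequences are shown for 3 of the genes because their response elements can be read directly. Of the 10 genes, 7 had promoter windows in RefSeq (GRCm38.p6), each running from 250 bases before to 50 bases after a transcript start, for 14 windows in all. The full element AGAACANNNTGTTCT, searched on both strands, was present in 3 of 32851 windows of mouse genes (0.00913%), and 1 of these belonged to Sgk1. Sgk1 had several of the 14 windows, and its other windows held no full element. The window with it, chr10:21993640-21993939 on the plus strand, is printed with the element in capitals, together with a separate half-site. The element begins at position -189 from the transcript start of that window.
Sgk1: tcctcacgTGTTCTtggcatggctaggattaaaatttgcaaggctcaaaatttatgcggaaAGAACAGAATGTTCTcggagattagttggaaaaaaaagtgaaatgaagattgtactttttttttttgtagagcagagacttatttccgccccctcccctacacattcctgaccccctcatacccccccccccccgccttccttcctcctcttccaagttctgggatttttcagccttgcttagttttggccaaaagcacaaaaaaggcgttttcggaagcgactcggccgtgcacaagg
The half-site alone (AGAACA or TGTTCT, which the full element contains at both ends) occurred in 18.97% of all windows and in 4 of the 14 windows of these genes, 3 of Sgk1 and 1 of Tsc22d3. No match in a window says only that these letters are not there, and response elements of this family are known to lie far from the start as well as in introns.

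Mt1 and Mt2 encode metallothioneins, small proteins that bind zinc and copper, and they lie next to each other in the genome. Their windows begin 6471 bases apart on the plus strand of chromosome 8, at chr8:94178839-94179138 for Mt1 and chr8:94172368-94172667 for Mt2, and neither held a glucocorticoid half-site. The core of the metal response element (TGCACNC or TGCGCNC, on both strands) was looked for after the values were known and is printed in capitals.
Mt1: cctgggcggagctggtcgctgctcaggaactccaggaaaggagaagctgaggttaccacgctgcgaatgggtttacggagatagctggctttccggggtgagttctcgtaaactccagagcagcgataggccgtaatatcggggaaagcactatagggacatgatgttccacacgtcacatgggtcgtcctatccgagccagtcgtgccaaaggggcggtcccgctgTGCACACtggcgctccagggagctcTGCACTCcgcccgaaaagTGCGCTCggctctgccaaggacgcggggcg
Mt2: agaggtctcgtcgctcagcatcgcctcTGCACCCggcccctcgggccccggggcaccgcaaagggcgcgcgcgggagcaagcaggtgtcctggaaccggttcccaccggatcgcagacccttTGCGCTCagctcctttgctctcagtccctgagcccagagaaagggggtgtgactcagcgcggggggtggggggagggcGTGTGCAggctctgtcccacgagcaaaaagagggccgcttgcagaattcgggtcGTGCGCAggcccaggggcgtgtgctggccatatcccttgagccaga
Mt1 held 3 cores and Mt2 held 4, while 25.7% of all windows held at least 1 core and 1.31% held 3 or more.

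Counts per library totaled 23026627 to 36880413, and the counts of these 10 genes lay between 43 and 16286 per library, so that counting error was small beside the spread between mice. Xist and Ddx3y matched the labeled sex in all 24 libraries, and no 2 libraries of a group were duplicates. Markers of skeletal muscle fiber were abundant in every library, with a summed level of 65620 to 146100 CPM (counts scaled to normalized library totals). Of these libraries, 2 stood apart. The 9 slow fiber markers summed to 81.7 CPM in male sham 4 and to 68.7 CPM in female sham 7, whereas the other 22 libraries held at least 683.7 CPM. The same 2 mice often had the highest levels of the glucocorticoid-responsive genes, so many results are given with and without them. The part of fiber type or dissection in these levels was not tested.

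The 10 genes were lower in SMC than in sham muscle, by fitted mean, in males and in females. Averaged over the sexes, 6 of the 10 fell at a false discovery rate (FDR) under 0.05, and 0 rose. They were Mt2, Fkbp5, Cebpd, Ddit4, Mt1 and Klf15. Lower calls made up 1.33% of all tested genes in that comparison. At an unadjusted p under 0.05, 9 of the 10 were lower, against 9.65% of all tested genes. The median log2 fold change was -0.91 over the 10 genes and -0.0089 over all tested genes. Because the 10 genes were chosen with earlier results of these data known, these shares describe the set and do not test it. Within a single sex fewer calls were made. In males 0 of the 10 genes were called, where 0.0% of all tested genes were called lower, and 6 were lower at an unadjusted p under 0.05 against 5.59% of all tested genes. In females Mt2 alone was called, where 0.219% of tested genes were called lower, and 9 were lower at an unadjusted p under 0.05 against 7.47%. Without male sham 4 and female sham 7, the average over the sexes still called Fkbp5, Cebpd, Mt1 and Mt2, but not Ddit4 (log2 fold change -1.40, FDR 0.0612) or Klf15 (-0.36, FDR 0.0659). With limma voom quality weights in place of edgeR, in all libraries, Cebpd (log2 fold change -0.85, FDR 0.0563), Ddit4 (-0.91, FDR 0.245) and Mt1 (-0.78, FDR 0.129) were smaller in change and not called. The muscle was measured in bulk, so fewer cells of a type and less RNA per cell cannot be told apart.

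**Figure D1:**
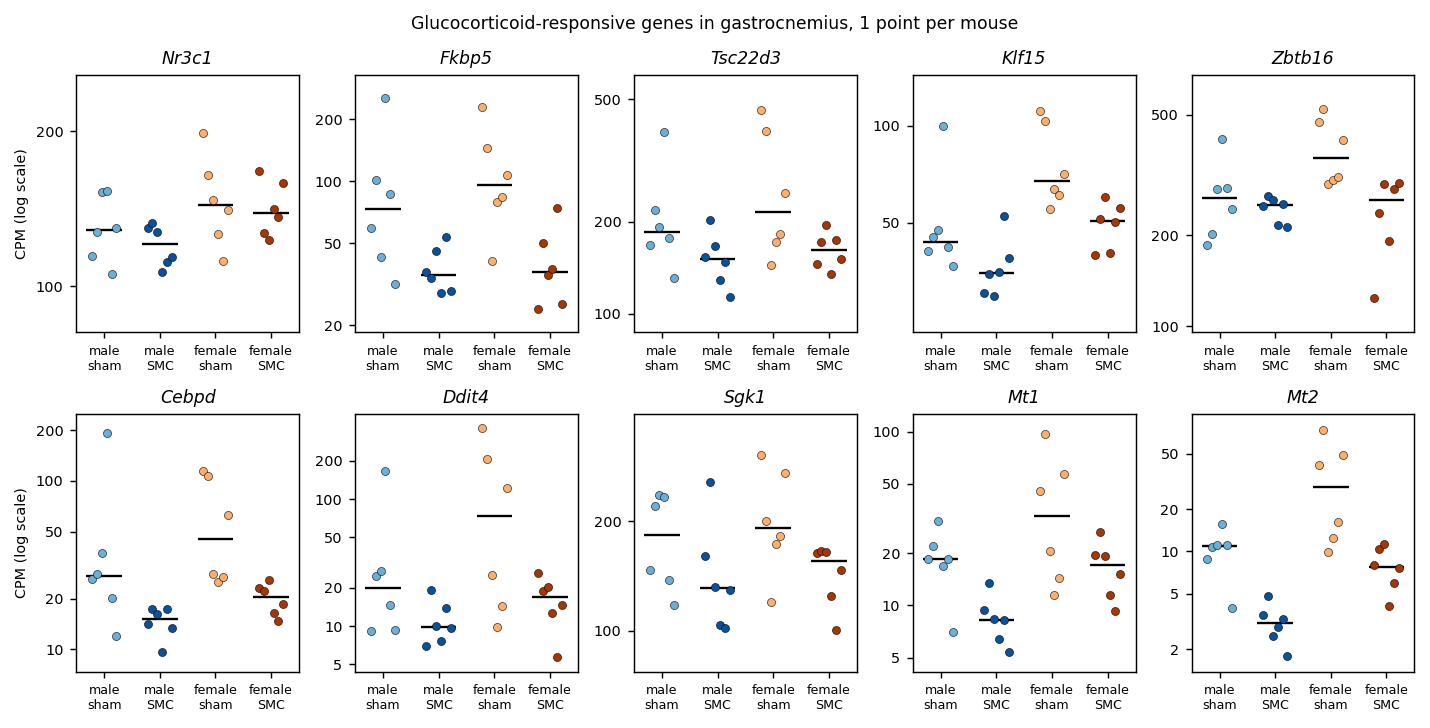
Each panel plots 1 gene, each point is 1 mouse, and the bar is the group median, in CPM on a log axis. A few sham mice lay far above the rest, as for Ddit4, where female sham values ran from 9.77 to 360.3 CPM and female SMC values from 5.69 to 26.3 CPM.

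The receptor gene itself was not called. Nr3c1 (ENSMUSG00000024431) measured 106 CPM at the lowest, 128.5 at the median and 153 at the highest in male sham mice, and 107, 121 and 132.5 CPM in male SMC mice. In females the same 3 values were 112, 144 and 198 CPM in sham and 123, 139 and 168 CPM in SMC. The groups overlapped almost fully, and 2 of 6 male sham and 1 of 6 female sham mice lay above every SMC mouse of their sex. The log2 fold change averaged over the sexes was -0.086 (95% interval -0.26 to 0.086, FDR 0.642).

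Fkbp5 (ENSMUSG00000024222) encodes a cochaperone that lowers the receptor's affinity for hormone and is itself strongly induced by it, so that it forms a negative feedback loop. In male sham mice its lowest, median and highest values were 31.5, 72.9 and 253 CPM, and in male SMC mice they were 28.5, 35.0 and 53.5 CPM. Female sham mice had 41.1, 95.5 and 230.2 CPM, and female SMC mice 23.96, 36.3 and 73.7 CPM. The highest sham values came from male sham 4 and female sham 7, and 4 of 6 male sham and 5 of 6 female sham mice exceeded every SMC mouse of their sex. Over both sexes Fkbp5 fell by 1.41 on the log2 scale (SE 0.30, FDR 0.0142), or 2.65-fold. Leaving out those 2 mice reduced the log2 fold change to -0.96 (FDR 0.0254).

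Tsc22d3 (ENSMUSG00000031431) encodes GILZ, a leucine zipper protein that carries part of the anti-inflammatory action of the hormone. Its lowest, median and highest values were 130.5, 185 and 391 CPM in male sham, and 113, 150.5 and 203 CPM in male SMC mice. In females they were 145, 215 and 464 CPM in sham and 135, 161 and 195 CPM in SMC. Of the sham mice, 2 of 6 males (male sham 2 and 4) and 3 of 6 females (female sham 7, 8 and 12) lay above every SMC mouse of their sex. The log2 fold change averaged over the sexes was -0.60 (SE 0.18, unadjusted p = 0.00267), which missed the threshold at an FDR of 0.0712. It was -0.36 (FDR 0.138) without male sham 4 and female sham 7 and -0.34 (FDR 0.168) with voom quality weights, and it passed the threshold without male sham 6 or without female sham 9.

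Among the 3 transcription factors, Cebpd was lower by the most. Cebpd (ENSMUSG00000071637) encodes C/EBP-delta, a factor of the acute stress and early fat cell programs. Its lowest, median and highest values were 12.04, 27.05 and 192 CPM in male sham and 9.56, 15.1 and 17.3 CPM in male SMC mice. The female values were 25.2, 45.1 and 114 CPM in sham and 14.8, 20.4 and 25.7 CPM in SMC. In each sex 5 of 6 sham mice lay above every SMC mouse, although the highest values, from male sham 4 and female sham 7 and 8, stood far above the other sham mice. Over both sexes Cebpd fell by 1.71 on the log2 scale (SE 0.36, FDR 0.0146), and without male sham 4 and female sham 7 the log2 fold change was -1.04 (FDR 0.0179). An exon of Spidr on the opposite strand overlaps Cebpd in the annotation (GENCODE M21), and the strand setting of the counting was not given in the sources used here.

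Klf15 (ENSMUSG00000030087) encodes a zinc finger factor that promotes amino acid breakdown and lipid use during fasting. Its lowest, median and highest values were 36.65, 43.6 and 99.9 CPM in male sham and 29.7, 35.0 and 52.4 CPM in male SMC mice. Females measured 55.3, 67.25 and 111 CPM in sham and 39.8, 50.85 and 60.2 CPM in SMC. Male sham 4 was the only male sham mouse above every male SMC mouse, against 5 of 6 female sham mice above every female SMC mouse. The log2 fold change averaged over the sexes was -0.57 (SE 0.15, FDR 0.0480), close to the threshold, and 16 of the 24 fits that left out 1 library did not call it, with FDRs from 0.0515 without male sham 1 to 0.0844 without female sham 8.

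Zbtb16 (ENSMUSG00000066687) encodes PLZF, a zinc finger repressor. In male sham mice its lowest, median and highest values were 185, 265 and 415 CPM, and in male SMC mice 212, 251.3 and 269.6 CPM. In females they were 294.5, 361 and 523 CPM in sham and 124, 261 and 298 CPM in SMC. The male medians were close, whereas 5 of 6 female sham mice lay above every female SMC mouse. Averaged over the sexes the log2 fold change was -0.42 (SE 0.14, FDR 0.109). It was -0.15 in males (95% interval -0.56 to 0.27) and -0.70 in females (95% interval -1.11 to -0.28, FDR 0.113), and the male value was 0.0079 without male sham 4. The difference between the sexes is given with that of the other genes.

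Ddit4 (ENSMUSG00000020108) had the widest range of the 10 genes. It encodes REDD1, which inhibits the growth kinase complex mTORC1 and is induced by glucocorticoids, low oxygen and energy stress. In male sham mice its lowest, median and highest values were 9.17, 19.8 and 165 CPM, and in male SMC mice 7.03, 9.84 and 19.3 CPM. Among females they were 9.77, 74.0 and 360.3 CPM in sham and 5.69, 16.9 and 26.3 CPM in SMC. The female sham mice fell far apart, with 360.3 CPM in female sham 7, 207 in female sham 8 and 123 in female sham 12, and at most 25.3 CPM in the other 3, which lay within the range of the SMC mice. Ddit4 fell, averaged over the sexes, by 2.39 on the log2 scale (SE 0.55, FDR 0.0217), or 5.25-fold. Leaving out male sham 4 alone reduced the log2 fold change to -1.75 over both sexes and, in males, from -1.88 to -0.60.

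Sgk1 (ENSMUSG00000019970), the gene with 1 window that held the full response element, encodes a kinase that regulates ion channels and transporters and resembles AKT. Its lowest, median and highest values were 118, 183 and 236.5 CPM in male sham and 102, 131 and 255 CPM in male SMC mice. In females they were 119.7, 191 and 303 CPM in sham and 100.5, 155 and 166 CPM in SMC. No male sham mouse lay above every male SMC mouse, because male SMC 14 had the highest male value, whereas 5 of 6 female sham mice lay above every female SMC mouse. The log2 fold change averaged over the sexes was -0.42 (SE 0.16, unadjusted p = 0.0178, FDR 0.177).

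Of the 10 genes, the metallothionein gene Mt2 had the smallest FDR. Mt2 (ENSMUSG00000031762) had lowest, median and highest values of 3.935, 10.9 and 15.7 CPM in male sham and 1.80, 3.09 and 4.84 CPM in male SMC mice. Female values were higher, at 9.94, 28.9 and 73.9 CPM in sham and 4.09, 7.77 and 11.4 CPM in SMC. In each sex 5 of 6 sham mice lay above every SMC mouse. Over both sexes Mt2 fell by 1.90 on the log2 scale (SE 0.29, FDR 0.00296), or 3.72-fold, and without male sham 4 and female sham 7 the log2 fold change was -1.79 (FDR 0.00507). In females alone it fell by 2.10 (SE 0.40, FDR 0.0228), a call that was lost when any of female sham 8 or female SMC 19, 20, 22 or 23 was left out. In males the log2 fold change was -1.69 (SE 0.42, unadjusted p = 5.24e-04, FDR 0.128).

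Mt1 (ENSMUSG00000031765) followed the same order of groups. Its lowest, median and highest values were 7.07, 18.5 and 30.4 CPM in male sham and 5.397, 8.26 and 13.5 CPM in male SMC mice. In females they were 11.5, 32.8 and 97.2 CPM in sham and 9.25, 17.2 and 26.6 CPM in SMC. Among sham mice 5 of 6 males and 3 of 6 females exceeded every SMC mouse of their sex. Over both sexes Mt1 fell by 1.21 on the log2 scale (SE 0.29, FDR 0.0283), and the call was lost without female sham 8 (FDR 0.0547) or male SMC 18 (FDR 0.0536). The highest Mt1 and Mt2 values of all came from female sham 8, whereas female sham 7 held the highest values of Nr3c1, Tsc22d3, Klf15, Ddit4 and Sgk1. Metallothionein transcripts are alike in sequence, and how reads shared between them were counted was not given in the sources used here. In the annotation an exon of Gm45774 on the opposite strand also overlaps Mt2.

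**Figure D2:**
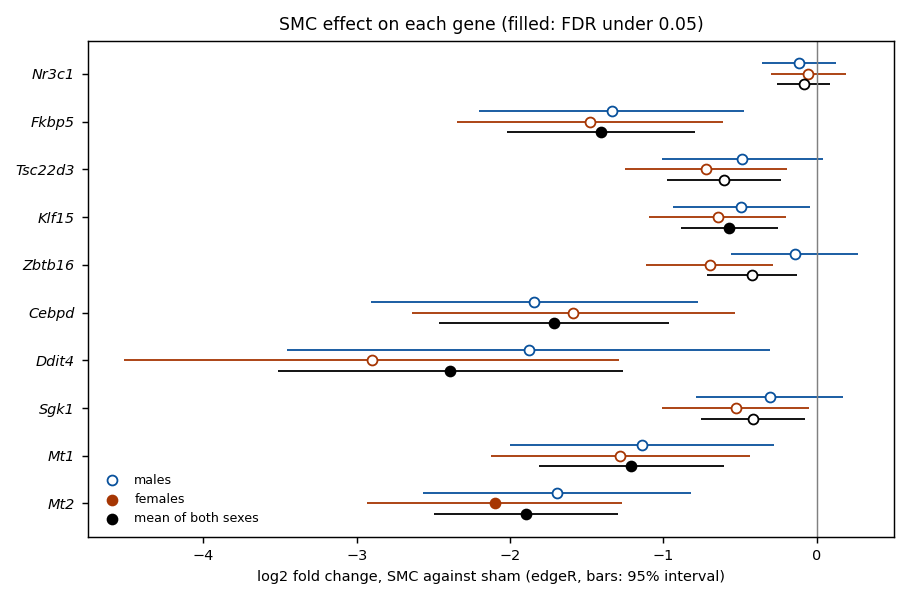
Points are log2 fold changes of SMC against sham from edgeR for males, females and the mean of both sexes, bars are 95% intervals, and filled points have an FDR under 0.05. All points lie below 0, Nr3c1 lies closest to it, and Ddit4 has the widest intervals.

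Between genes, levels per kilobase of exon differed by about an order of magnitude. The median over 24 mice was 52.4 CPM per kilobase for Zbtb16, 39.5 for Tsc22d3 and 33.1 for Sgk1. Klf15 (17.5), Nr3c1 (16.9) and Mt2 (15.96) were next and close together, followed by Mt1 (12.8). Ddit4 (8.41), Cebpd (6.06) and Fkbp5 (5.05 CPM per kilobase) had the lowest medians. Because single mice ranged 63.3-fold for Ddit4 and 20.1-fold for Cebpd, against 1.87-fold for Nr3c1, neighbors in that order mostly overlapped. Lengths were taken from GENCODE M21, which may differ from the annotation that was counted.

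Most of these genes also varied more among sham than among SMC mice. The SD of log2 CPM was larger in sham than in SMC for 9 of 10 genes in males and 9 of 10 in females, with median ratios of 1.80 and 1.95. Over all tested genes the ratio was above 1 for 64.02% in males (median 1.21) and 70.0% in females (median 1.32). Cebpd had the largest male ratio (SD 1.36 in sham and 0.32 in SMC) and Tsc22d3 the largest female ratio (SD 0.68 and 0.19). The exceptions were Sgk1 in males (0.44 and 0.49) and Zbtb16 in females (0.36 and 0.50). No test of the spread was made.

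The mice with high values were largely shared between genes. Male sham 4 was the highest of its group for 8 of the 10 genes, female sham 7 for 7 and female sham 8 for the other 3. Among all 24 mice the highest value came from female sham 7 for 5 genes, from female sham 8 for 3 and from male sham 4 for 2, so no SMC mouse held the highest value of any of the 10 genes. Male sham 6 was the lowest of its group for 7 genes.

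**Figure D3:**
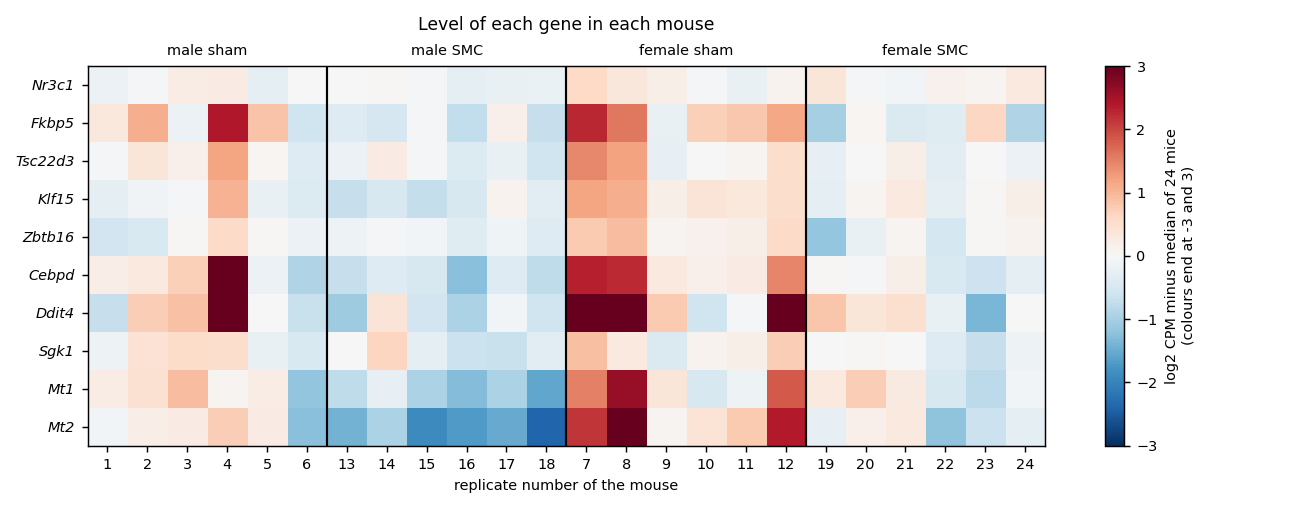
Each column is 1 mouse, each row is 1 gene, and the color is log2 CPM minus the gene's median over 24 mice. Red columns mark male sham 4 and female sham 7, 8 and 12, with Ddit4 among the darkest squares of each, and Nr3c1 stays pale throughout.

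How the genes covaried between mice was measured after the group mean of each gene was removed, so that differences between group means could not contribute. Over 24 mice all 45 pairs of the 10 genes had a Pearson r above 0, with a median of 0.63 and a range of 0.21 to 0.91. An r of at least 0.5 was reached by 34 of the 45 pairs, against 6.59% of all pairs of 1 of these genes with a tested gene. In two-sided permutation tests that shuffled mice within groups, 30 of the 45 pairs had adjusted p-values under 0.05 for both Pearson's r and Spearman's rho (Benjamini-Hochberg over 45 pairs). Without male sham 4 and female sham 7 the median r was 0.52.

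The closest pair was Cebpd and Ddit4 (r = 0.91, rho = 0.94, permutation p = 1e-05 for both, the smallest that the permutations can give, adjusted p = 4.5e-04). Their r was 0.93 without the 2 mice farthest from the Cebpd median. By group it was 0.95 in male sham, 0.71 in male SMC, 0.98 in female sham and 0.89 in female SMC mice. These values were positive in each group of 6 but were not tested within groups. Mt1 and Mt2, the neighboring genes with several metal response cores, were similarly close (r = 0.89, rho = 0.85, adjusted permutation p = 6e-04 and 0.00103) and had an r of at least 0.79 in each group. Without the 2 mice farthest from the Mt1 median their r was 0.84.

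Tsc22d3 followed Cebpd (r = 0.89, rho = 0.82, adjusted permutation p = 4.5e-04 and 0.00103) and Ddit4 (r = 0.85, rho = 0.75, adjusted permutation p = 0.0012 and 0.00267). Klf15 followed Cebpd (r = 0.84, rho = 0.68, adjusted permutation p = 0.0012 and 0.00417). These 3 pairs rested more on the extreme mice. Without the 2 mice farthest on the x axis, which were male sham 4 and female sham 7 each time, r was 0.83, 0.71 and 0.61. Within female SMC mice alone r was 0.38, -0.087 and 0.27.

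Nr3c1 was the least tied to the others, with a median r of 0.44 over its 9 pairs. Its pair with Fkbp5 had the lowest r of all (r = 0.21, rho = 0.066, permutation p = 0.412 and 0.785), and r became -0.26 without male sham 4 and female sham 7 and 0.011 without the 2 mice farthest from the Nr3c1 median. The next lowest pair was Nr3c1 with Zbtb16 (r = 0.29, rho = 0.33, permutation p = 0.218 and 0.168), whose r was 0.17 without the 2 mice farthest from the Nr3c1 median.

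Covariation was stronger among sham than among SMC mice. The median r over the 45 pairs was 0.73 in the 12 sham mice, where all 45 pairs were above 0, and 0.24 in the 12 SMC mice, where 33 were. By group it was 0.71 in male sham, 0.56 in male SMC, 0.86 in female sham and 0.18 in female SMC. The 10 pairs among Cebpd, Ddit4, Sgk1, Mt1 and Mt2 had an r of at least 0.53 in SMC mice, the highest being Mt1 with Mt2 (r = 0.84) and Sgk1 with Mt1 (r = 0.80), whereas Klf15 with Cebpd had 0.97 in sham and 0.23 in SMC mice. The sham values include male sham 4 and female sham 7, and sham values without them are not given here. Over both housings, r of Klf15 with Cebpd was 0.84 with these 2 mice and 0.61 without them. The difference between sham and SMC was not tested, and SMC mice also spanned a narrower range of levels.

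**Figure D4:**
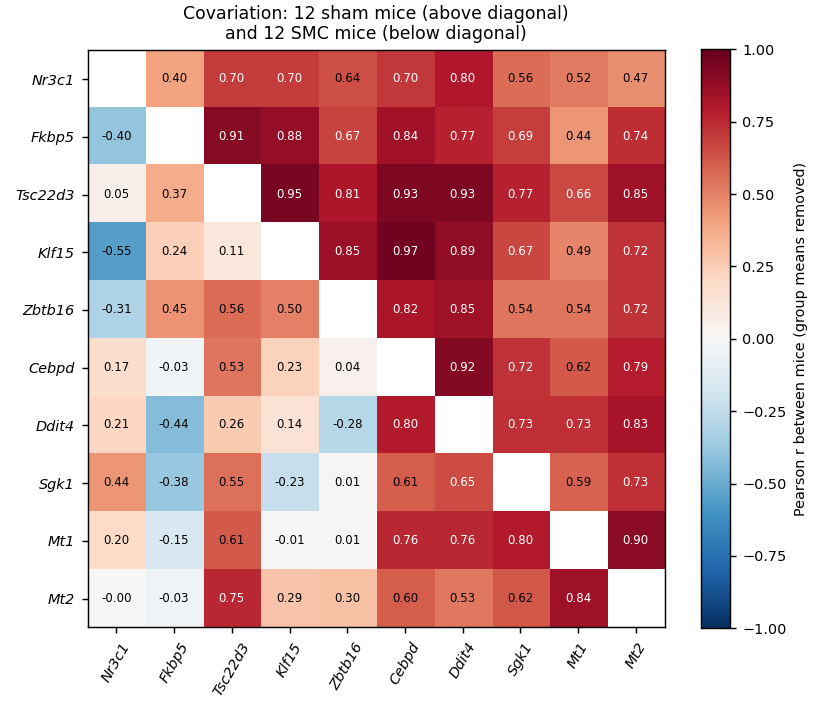
Each square gives Pearson's r between 2 genes over 12 mice after removal of group means, for sham above the diagonal and SMC below it. Above the diagonal every square is red (r of at least 0.40), and below it the block of Cebpd, Ddit4, Sgk1, Mt1 and Mt2 is red while most squares of Nr3c1 and Fkbp5 are pale or blue.

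For each gene the 3 protein-coding genes most like it in Pearson's r over 24 mice, the 10 genes included, were found by rule. Foxo1, a fasting and atrophy factor, was among the top 3 for Fkbp5 (r = 0.88), Tsc22d3 (r = 0.91) and Klf15 (r = 0.89). Trim63, which encodes the muscle ubiquitin ligase MuRF1, was the most like Cebpd (r = 0.93), and Arrdc3 was among the top 3 for Cebpd (r = 0.90) and for Ddit4 (r = 0.88). The most like Tsc22d3 was Anapc16 (r = 0.96), whose gene is the neighbor of Ddit4, followed by Ankrd9 (r = 0.94). Zbtb16 was closest to Ppp1r3c, a glycogen-targeting subunit of protein phosphatase 1 (r = 0.92), and to Chd7 (r = 0.91), neither of which was among the top 3 of another of the 10 genes. For Nr3c1 the closest was Calr3 (r = 0.84), for Sgk1 it was Atl2 (r = 0.81), and the metallothionein genes were each closest to the other. These are the highest of many correlations and are given as description without a test.

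No difference between the sexes in the response to SMC was detected. The difference between the male and female responses was called for 0 of the 10 genes, as for 0.0% of all tested genes by edgeR, and 0 of the 10 had an unadjusted p under 0.05, against 5.13% of all tested genes. The smallest p belonged to Zbtb16, whose log2 fold change was 0.55 higher in males (95% interval -0.030 to 1.14, unadjusted p = 0.0618, FDR 0.955). For Ddit4 the interval ran from -1.14 to 3.19 and for Cebpd from -1.72 to 1.21, so sizable differences in either direction were not resolved.

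The level itself differed by sex for the metallothionein genes. Averaged over housing, the 10 genes were lower in males than in females by fitted mean, and 2 were called, against 2.54% of all tested genes called lower in males. Mt2 was lower in males by 1.52 on the log2 scale (log2 fold change -1.52, SE 0.29, FDR 0.00208), and its highest male sham value, 15.7 CPM, lay below the female sham median of 28.9 CPM. Mt1 had a log2 fold change of -1.05 (SE 0.29, FDR 0.0365), and it was not called in sham mice alone. That call was also lost when any 1 of male sham 1 or 6, female sham 8 or 12, male SMC 13, 15, 16 or 18, or female SMC 19, 20 or 21 was left out. At an unadjusted p under 0.05, 4 of the 10 were lower in males against 10.8% of all tested genes, the other 2 being Klf15 (-0.50, FDR 0.0580) and Nr3c1 (-0.21, FDR 0.155). Leaving out male sham 4, which was high for most of these genes, raised the number called to 5, with Klf15, Cebpd and Ddit4 added. Most adipocyte markers were also fitted lower in males. Of 7, 6 were lower at an unadjusted p under 0.05, 1 was fitted higher, and Retn was called (FDR 0.0281). Their summed levels were 68.97 to 171 CPM in male sham and 79.1 to 102 in male SMC mice. In females they were 72.1 to 166 CPM in sham and 86.2 to 298 CPM in SMC. The median sum in sham mice was 108 CPM in males and 98.5 CPM in females. In SMC mice it was 95.3 CPM in males and 128 CPM in females. The part of adipocytes in the metallothionein difference was not tested.

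Genes that handle the hormone or work with the receptor were fitted both higher and lower in SMC. Of 13 listed, 12 were tested, Hsd11b2 being too low. Averaged over the sexes, 6 were fitted higher and 6 lower. At an unadjusted p under 0.05, 4 were higher against 7.9% of all tested genes, and 1 was lower against 9.65%. Over both sexes 2 rose by edgeR at an FDR under 0.05, against 1.03% of all tested genes, and 0 fell. Nr3c2, the mineralocorticoid receptor, which also binds glucocorticoids, rose by a log2 fold change of 0.33 (SE 0.078, FDR 0.0267), from medians of 20.4 and 22.5 CPM in male and female sham to 25.0 and 29.8 CPM in SMC. Ncor1, a corepressor, rose by 0.18 (SE 0.048, FDR 0.0480), whereas with library totals left unscaled neither was called and 2 other genes of the list were called lower. The median log2 fold change of the 12 genes was -0.017, and both calls held without male sham 4 and female sham 7, but 4 of 24 fits that left out 1 library called none. Between the sexes Hsd11b1, the enzyme that regenerates active hormone in tissue, was higher in males (log2 fold change 0.72, SE 0.12, FDR 6.28e-04, where 2.39% of tested genes were higher in males), with medians of 6.61 and 5.03 CPM in male sham and SMC and 3.44 and 3.02 CPM in females.

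Of 23 other genes known to respond to glucocorticoids in muscle, all tested, 10 fell in SMC and 0 rose averaged over the sexes, where 1.33% of all tested genes were called lower. A negative log2 fold change was fitted for 22 of the 23, and the median was -0.43 against -0.0089 over all tested genes. This list too was chosen with earlier results of these data known, so these shares describe it and do not test it. The 5 with the smallest p were Cdkn1a, a cell cycle inhibitor (-1.65, SE 0.27, FDR 0.00363), Cebpb, a sister factor of Cebpd (-0.80, SE 0.16, FDR 0.0119), Bnip3, a mitophagy receptor (-0.34, SE 0.071, FDR 0.0138), Pdk4, which inhibits pyruvate dehydrogenase (-0.82, SE 0.18, FDR 0.0167), and Sesn1, a stress-induced sestrin (-0.94, SE 0.21, FDR 0.0215). Trim63, Foxo3, Ampd3, Foxo1 and Glul were the other 5. Other targets were not called, among them Per1 (-0.12, 95% interval -0.52 to 0.28), Dusp1 (-0.063, 95% interval -0.61 to 0.49) and Txnip (-3.67e-04, 95% interval -0.16 to 0.16).

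In males 0 of the 23 were called (0.0% of all tested genes by edgeR) and 11 were lower at an unadjusted p under 0.05, against 5.59% of all tested genes. In females Pdk4 was called (FDR 0.0497), where 0.219% of tested genes were called lower, and 16 were lower at an unadjusted p under 0.05 against 7.47%. Without male sham 4 and female sham 7, 9 of the 23 were called lower averaged over the sexes, Glul no longer being called (-0.58, FDR 0.0516). Sesn1 was reduced to -0.60 (FDR 0.00922), Trim63 from -1.49 to -0.83 and Foxo1 from -1.08 to -0.60. Smaller reductions were seen for Cdkn1a (to -1.48), Bnip3 (to -0.31) and Pdk4 (to -0.74). Leaving out 1 library at a time gave 8 to 11 called lower. Many of these genes, such as Foxo1, Foxo3, Trim63, Pdk4 and Bnip3, are also known targets or parts of the fasting and atrophy response, so the list is not specific to the hormone. Between the sexes, 4 were called lower in males, against 2.54% of all tested genes, and 2 higher, against 2.39%. Lower were Ampd3 (log2 fold change -0.55, FDR 0.00126), Nfkbia (-0.62, FDR 0.0118), Foxo3 (-0.44, FDR 0.0200) and Cdkn1a (-0.97, FDR 0.0379). Higher were Igf1 (0.82, FDR 0.00367) and Bnip3 (0.24, FDR 0.0472). Leaving out 1 library at a time gave 3 to 9 lower calls and 1 to 2 higher calls.

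**Figure D5:**
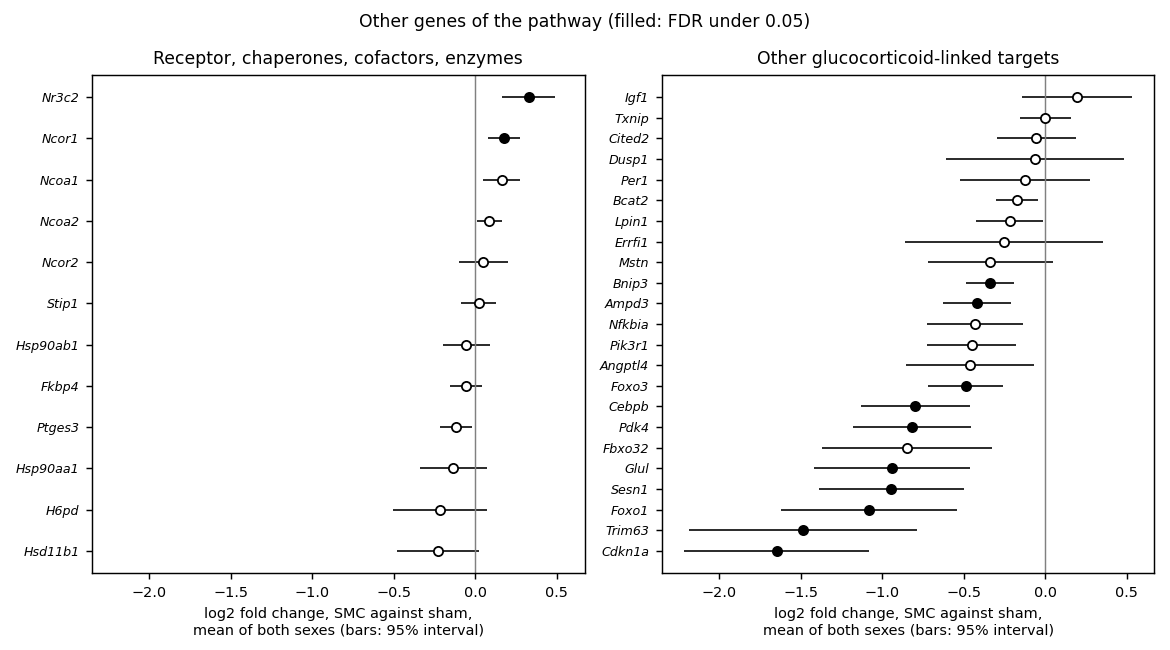
Points are log2 fold changes of SMC against sham averaged over the sexes, with 95% intervals, for 12 tested genes of hormone handling and receptor function (left) and 23 other targets (right), and filled points have an FDR under 0.05. On the left the points lie around 0, and on the right 22 of 23 lie below it.

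Glucocorticoid output is tied to the time of day, so the core clock genes were set beside the 10 genes. Of 15 clock genes tested, Bhlhe41 alone was called averaged over the sexes (0.62 higher on the log2 scale in SMC, SE 0.11, FDR 0.0076). Higher calls made up 1.03% of all tested genes. With 8 fitted higher and 7 lower, the list median of 0.015 does not show that no clock gene shifted. In females 10 were fitted higher and 5 lower, and Bhlhe41 was called (FDR 0.0473), among 20 higher calls in 16408 tested genes. Female medians went from 30.6 CPM in sham to 16.8 CPM in SMC for Arntl. For Dbp they went from 47.5 to 104 CPM, and neither gene was called. Per1 with Ddit4 (r = 0.72, rho = 0.76, adjusted permutation p = 0.003 and 0.00338) and with Cebpd (r = 0.60, rho = 0.67, adjusted permutation p = 0.0114 and 0.0123) covaried between mice. Their r was 0.71 and 0.52 without the 2 mice farthest from the Ddit4 or Cebpd median.

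Most relations with the clock genes were those of Zbtb16. Of 150 pairs of these genes with clock genes, 7 had adjusted permutation p-values under 0.05 for both r and rho, and 5 of these 7 involved Zbtb16. It was positively correlated with Arntl, which encodes the activator BMAL1 (r = 0.84, rho = 0.82, adjusted permutation p = 0.003 and 0.00338), and with Npas2 (r = 0.73, rho = 0.75, adjusted permutation p = 0.0233 and 0.0193). It ran opposite to Nr1d2 (r = -0.78, rho = -0.82), Dbp (r = -0.73, rho = -0.80) and Per3 (r = -0.70, rho = -0.75), with adjusted permutation p-values of 0.00525, 0.004 and 0.017 for r. Without the 2 mice farthest from the Zbtb16 median these 5 values of r were 0.76, 0.72, -0.74, -0.73 and -0.70, and within groups of 6 each kept its sign. Whether mice of different groups were collected at different hours was not given in the sources used here, and its part in the housing differences was not tested.

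Markers of other cell types showed no called difference between SMC and sham in edgeR, in either sex or averaged. Nor were slow fiber markers called, although averaged over the sexes 9 of 9 were fitted higher in SMC (median log2 fold change 0.59). The 2 sham libraries with the lowest slow fiber sums are included there. Adipocyte markers were fitted higher in SMC for 7 of 7 in females (median 0.79) and lower for 6 of 7 in males (median -0.24). In these 3 comparisons 0 markers had an unadjusted p under 0.05. Fibroblast markers were lower in SMC females for 3 of 6 and tendon markers for 4 of 5 at an unadjusted p under 0.05, against 7.47% of all tested genes. Macrophage markers summed to 27.2 to 109 CPM over all mice, and their defining gene Adgre1 had group medians of 3.53 to 4.05 CPM. Endothelial markers summed to 199.5 to 433 CPM, Schwann cell markers to 42.0 to 165 CPM, and red blood cell markers to 74.3 to 1844 CPM. At an unadjusted p under 0.05, averaged over the sexes, 2 of 5 endothelial and 2 of 5 Schwann cell markers were higher in SMC, against 7.9% of all tested genes, and 0 of the macrophage and red blood cell markers differed. Their part in the levels of the glucocorticoid-responsive genes was not tested.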

How the data were processed

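Total RNA of gastrocnemius was depleted of ribosomal RNA and made into strand-specific libraries. The authors deposited raw counts per Ensembl gene, 1 column per mouse. Their processing notes name cutadapt 1.16, STAR 2.7.9a, featureCounts 1.6, DESeq2 1.34.0 and the mouse builds GRCm39 and mm39. Symbols and exon lengths came from GENCODE M21. Promoters came from RefSeq on GRCm38.p6, another build than that of the counts.

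Samples were grouped by labeled sex and treatment. Genes passing filterByExpr were fitted with edgeR 4.0.16 (R 4.3.3; TMM, quasi-likelihood, 1 mean per group, two-sided, Benjamini-Hochberg over 16408 genes), and a gene was called at an FDR under 0.05. Genes without a symbol held 0.361% of counts. CPM used TMM library sizes, and log2 CPM for correlations used a prior count of 2. Permutation tests used 100000 resamples. The fit was tested on simulated counts. Alternatives were DESeq2 1.42.0, limma 3.58.1 voomWithQualityWeights, other filters, unscaled totals, 1 sex at a time, robust dispersions and left-out libraries. Separate animals are implied but not stated by the labels, and p-values measure the spread between these samples.

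The members and lists were chosen with earlier results of these data known. All 10 members are named. Of other pathway genes, up to 5 called genes of smallest p per comparison are named, and the pairs named are the 5 of highest and 2 of lowest r. The clock pairs, the clock genes with female medians, the SMC pairs and the 3 uncalled targets were chosen after their values were seen.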

Additional observations from a re-analysis of the deposited data

Results flagged for a closer look

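Dixon's test for a single outlying sample was applied on the log scale of CPM to 40 groups of 6 values, 10 genes by 4 groups. It marked 2, and about 2 are expected by chance at 1 in 20. Both were male sham 4. Klf15 measured 99.9 CPM there, with the other 5 male sham mice between 36.65 and 47.5 CPM. Ddit4 measured 165 CPM there, with the other 5 between 9.17 and 26.95 CPM. The same library held 81.7 CPM of slow fiber markers, and its part in the 2 values was not tested.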

How the results depend on the processing

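No paired analysis was made because the labels give no pairing of mice, and the replicate numbers are library numbers. The study's methods state that sham and SMC mice were paired in housing for some experiments. Whether these mice were is not given in the sources used here. With unscaled library totals the median log2 fold change of all genes was -0.13 in males and -0.15 in females. In males, DESeq2 called 2 of the 10 genes (Cebpd, Mt2) and edgeR 0. In females, where edgeR called 1, the number was 4 with DESeq2, 4 with unscaled totals, 2 without male sham 4 and female sham 7, 0 with 1 sex fitted alone, 0 with voom weights, and 0 to 4 when 1 library was left out. Averaged over the sexes, where 6 were called, voom weights called 3 (Fkbp5, Klf15, Mt2), unscaled totals 9 (Tsc22d3, Zbtb16 and Sgk1 added), DESeq2 7 (Tsc22d3 added), and no filter or robust dispersions 5 (without Klf15), and leaving out 1 library gave 4 to 7, with Fkbp5, Cebpd, Ddit4 and Mt2 called each time. Between the sexes, where 2 were called, the number was 1 with unscaled totals, with sham mice only and with robust dispersions, 4 without male sham 4 and female sham 7, and 1 to 5 when 1 library was left out. The cause of these changes was not tested.

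The values that changed sign were all uncalled. In males Zbtb16 was 0.0011 with voom weights and 0.0079 without male sham 4 and female sham 7 (range -0.24 to 0.0079 when 1 library was left out). In females Nr3c1 was 0.027 and 0.050 in the same 2 fits (range -0.13 to 0.050). For the difference between the sexes, Cebpd was 0.17 with voom weights and 0.53 without both mice, and with voom weights Sgk1 was -0.0073, Mt1 -0.52 and Mt2 -0.18. Leaving out 1 library, that difference ranged from -0.17 to 0.0084 for Nr3c1, -0.19 to 0.70 for Fkbp5, -0.0031 to 0.48 for Tsc22d3, -0.54 to 0.81 for Cebpd, -0.0068 to 0.34 for Sgk1 and -0.33 to 0.33 for Mt1. The r of Nr3c1 and Fkbp5 was -0.255 without both mice.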
